A study of Mus musculus with 6 samples.

Results

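The chromatin at 3234 promoters of long non-coding RNA (lncRNA) genes that stand alone in the genome was examined by ATAC-seq, an assay that tags open DNA with adapters carried by a transposase. The cells were white blood cells from peripheral blood after lysis of red cells, per the study's methods, which describe no sorting for this assay. The labels used here name peripheral blood. The study's results text calls the cells mononuclear instead, a fraction that would hold few neutrophils. Of the 6 libraries, 3 were from the control group and 3 from the group in high-altitude de-acclimatization (HADA). Per the study's methods the mice were male C57BL/6J, 8 weeks old when obtained, with no transgene or deletion named. HADA mice were kept in a hypobaric chamber for 4 weeks and then returned to normal oxygen, and control mice stayed in normal oxygen throughout. The day of blood sampling for this assay is not given in the sources used here. Peaks of the 6 libraries on chromosomes 1 to 19 were merged where they shared 1 bp, which gave 60298 regions. A region was taken as a lone lncRNA promoter when a peak summit lay within 1 kb of the 5′ end of a GENCODE lncRNA gene and all of its summits lay more than 3 kb from every start of a protein-coding transcript. The peak values themselves played no part in this choice.

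An lncRNA is a transcript without a long reading frame, usually capped and spliced like an mRNA. Many lncRNA genes start back to back with a protein-coding gene and share its promoter, so that an open promoter cannot be assigned to either. The promoters described here have no start of a protein-coding transcript within 3 kb, though 158 of them lie that near to the start of a non-coding transcript of a protein-coding gene. Some of these genes have known roles: Malat1 is a very abundant RNA of nuclear speckles, where splicing factors gather, Kcnq1ot1 and Airn silence neighbouring genes on the paternal chromosome, and genes named Snhg or Mir...hg are the precursors of small nucleolar RNAs or microRNAs. Most of them are known by a number only. Of the 3234 regions, 2888 were nearest to a gene with a Gm number, 216 to a Rik clone, 41 to a bare identifier and 89 to a gene with another symbol.

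The sequences of 9 promoters show what is found at the summits of 3 known genes with a call (Malat1, Ptgs2os2 and Kcnq1ot1), of the 2 largest falls and the 2 largest rises, and of the tallest promoters with peaks in a single group. Each is 201 bases around the tallest summit (GRCm39), 5′ to 3′ on the strand of the gene, and capitals mark matches to 1 of 12 short transcription factor motifs. The first set holds promoters that were lower in HADA or had a peak in control libraries only.
Malat1 (chr19:5853408-5853608, minus strand): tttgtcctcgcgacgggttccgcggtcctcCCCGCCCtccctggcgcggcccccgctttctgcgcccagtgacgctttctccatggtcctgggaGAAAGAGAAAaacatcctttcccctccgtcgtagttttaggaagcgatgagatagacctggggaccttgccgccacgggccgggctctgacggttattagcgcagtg
Ptgs2os2 (chr1:150040691-150040891, minus strand): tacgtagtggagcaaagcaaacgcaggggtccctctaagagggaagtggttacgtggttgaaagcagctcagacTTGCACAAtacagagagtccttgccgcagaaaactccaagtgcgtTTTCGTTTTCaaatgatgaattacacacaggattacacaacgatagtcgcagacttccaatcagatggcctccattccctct
Gm56957 (chr10:99303289-99303489, minus strand): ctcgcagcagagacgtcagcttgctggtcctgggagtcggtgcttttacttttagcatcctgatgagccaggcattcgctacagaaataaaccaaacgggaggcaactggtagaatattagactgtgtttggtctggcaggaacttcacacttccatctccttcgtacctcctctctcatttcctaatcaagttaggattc
Gm74899 (chr2:131272340-131272540, plus strand): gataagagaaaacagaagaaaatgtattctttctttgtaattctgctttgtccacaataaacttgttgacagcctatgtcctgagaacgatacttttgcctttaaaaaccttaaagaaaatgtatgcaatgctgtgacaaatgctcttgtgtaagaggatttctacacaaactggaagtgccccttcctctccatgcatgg
Gm59848 (chr16:95632844-95633044, plus strand): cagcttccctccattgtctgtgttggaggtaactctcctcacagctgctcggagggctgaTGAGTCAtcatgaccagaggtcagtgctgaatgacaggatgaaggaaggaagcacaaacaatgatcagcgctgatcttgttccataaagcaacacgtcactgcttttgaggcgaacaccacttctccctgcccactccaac
In this set, Malat1 has a GC box of the SP and KLF family and an IRF motif, Ptgs2os2 has a C/EBP and an IRF motif, Gm59848 has an AP-1 motif, and Gm56957 and Gm74899 hold none of the 12. The second set holds promoters that were higher in HADA or had a peak in HADA libraries only.
Kcnq1ot1 (chr7:142850174-142850374, minus strand): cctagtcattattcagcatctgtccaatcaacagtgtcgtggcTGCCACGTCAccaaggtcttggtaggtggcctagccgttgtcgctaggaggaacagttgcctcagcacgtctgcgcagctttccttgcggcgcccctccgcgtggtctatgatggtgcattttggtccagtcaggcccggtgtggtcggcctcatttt
Gm62735 (chr15:58931392-58931592, plus strand): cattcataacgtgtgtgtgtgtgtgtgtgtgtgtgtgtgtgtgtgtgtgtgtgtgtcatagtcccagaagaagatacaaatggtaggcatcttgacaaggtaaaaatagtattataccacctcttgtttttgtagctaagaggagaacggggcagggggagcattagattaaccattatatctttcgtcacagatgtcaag
Gm75723 (chr2:27201609-27201809, plus strand): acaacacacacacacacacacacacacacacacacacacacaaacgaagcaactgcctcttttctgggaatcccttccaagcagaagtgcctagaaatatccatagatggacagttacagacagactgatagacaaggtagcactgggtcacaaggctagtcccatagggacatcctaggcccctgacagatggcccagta
Gm30990 (chr19:53888298-53888498, minus strand): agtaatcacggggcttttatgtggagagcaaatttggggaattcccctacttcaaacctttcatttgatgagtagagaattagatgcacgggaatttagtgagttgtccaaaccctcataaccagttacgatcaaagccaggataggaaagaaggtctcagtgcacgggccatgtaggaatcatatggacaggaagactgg
Kcnq1ot1 holds a match to the motif of NRF2, the factor of the antioxidant response, and the other 3 hold none of the 12.

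Peaks on chromosomes 1 to 19 numbered 39769, 39176 and 32533 in control 1, 2 and 3 and 42911, 42500 and 44102 in HADA 1, 2 and 3. Relative depth, read from the genome-wide pileup between peaks, was 1.69, 2.05 and 1.83 against 2.34, 1.99 and 2.27. Promoters of 10 B cell markers summed to a scaled level (summit height relative to the median region shared by all libraries) of 6.46, 5.16 and 1.38 in the control and 13.7, 15.3 and 14.5 in the HADA libraries, and those of 10 neutrophil markers to 5.90, 5.16 and 12.9 against 2.24, 1.76 and 1.30, with Ly6g, Camp and Ngp without a peak. Monocyte markers summed to 5.38 to 6.62 in the control and 4.33 to 4.5 in the HADA libraries, of which Nr4a1 gave 3.22 to 3.37 and 2.19 to 2.37, while Ly6c2 was higher in every HADA library (0.56 to 0.678 and 0.916 to 1.04). NK cell markers summed to 1.02 to 1.83 and 1.61 to 2.43, and erythroid markers, almost all from Tfrc, to 2.78 to 3.02 and 3.72 to 4.22. T cell markers summed to 7.55 to 10.1 in every library, with Cd4 and Cd8a without a promoter peak. This sum rested largely on Cd3d (4.68, 4.27 and 7.24 against 4.95, 3.70 and 4.02), and Lef1 (0.64 to 0.780 against 1.65 to 1.82) and Cd3e (0.56 to 0.745 against 0.924 to 0.957) were higher in every HADA library. All 6 platelet markers were at 0, and 1 of 6 endothelial markers had a peak. Control 3 thus stood apart from the other control libraries, with the fewest peaks, the lowest B cell level (a peak at 4 of 10 markers) and the highest neutrophil level. In such a mixture, a different share of a cell type and a different openness per cell cannot be told apart.

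Most lone lncRNA promoters were found in several libraries, but they were called less uniformly than promoters of protein-coding genes. A peak was present in all 6 libraries at 1443 of the 3234 regions (44.6%), against 38.2% of all 60298 regions, 77.3% of 13070 protein-coding promoters and 26% of 40925 distal regions, which lie away from both kinds of start. A single library called 400 of the regions (12.4%), and 267, 400, 346 and 378 were called by 2, 3, 4 and 5 libraries. Regions found in all libraries were also wider and taller. Their median width was 1049 bp and their median scaled pileup 1.03, whereas regions of a single library had medians of 389 bp and 0.181.

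**Figure D1:**
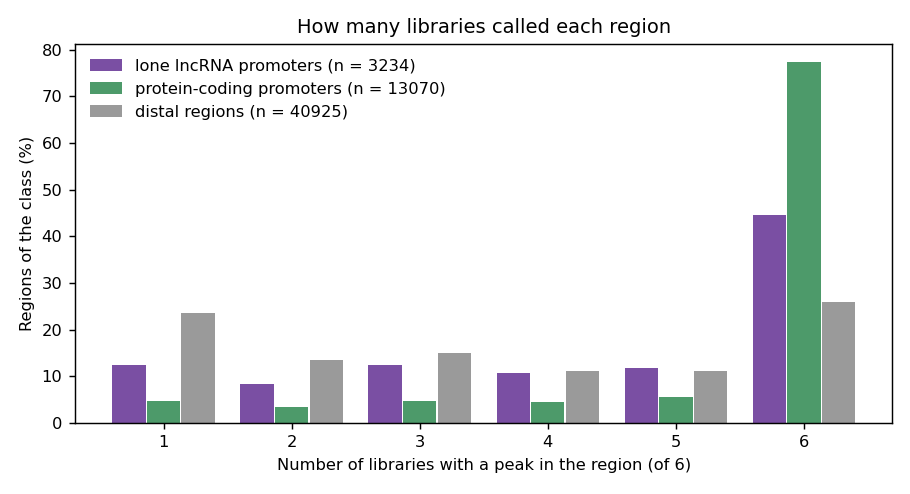
Share of regions (%, vertical axis) by the number of libraries with a peak (horizontal axis) for lone lncRNA promoters, protein-coding promoters and distal regions. Of the lone lncRNA promoters 44.6% were called in all 6 libraries, between the 77.3% of protein-coding promoters and the 26% of distal regions.

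By library, 2336, 2063 and 1869 of the lone lncRNA promoters had a peak in control mice and 2596, 2594 and 2608 in HADA mice, or 64.6% ± 7.25 against 80.4% ± 0.234 of the regions (SD, n = 3 each). The groups did not overlap, but the exact permutation test of 3 against 3 cannot go below p = 0.1. Peak number moved with these counts. When each library was limited to its 32533 strongest peaks, the counts became 2009, 1783 and 1869 for control mice and 2121, 2147 and 2086 for HADA mice. The promoters made up a similar part of each list, from 5.34% in control 2 to 6.17% in HADA 2.

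Height was read as the summit pileup, the number of fragments stacked at the top of a peak. The median over lone lncRNA promoters with a peak was 34, 34 and 36 in the control and 48, 41 and 42 in the HADA libraries. Protein-coding promoters had medians of 93, 81 and 85 against 150, 125 and 130. The lone lncRNA promoters thus reached 0.366, 0.420 and 0.424 of the protein-coding height in control mice and 0.320, 0.328 and 0.323 in HADA mice. Over regions open in all 6 libraries the ratio was nearer to 1, at 0.546, 0.556 and 0.516 against 0.497 in each HADA library. With the authors' fold over local background in place of the pileup it was 0.665, 0.684 and 0.670 against 0.653, 0.663 and 0.661. By each of these measures the ratio was lower in all HADA libraries than in all control libraries, which for 3 against 3 gives the smallest possible exact permutation p of 0.1.

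**Figure D2:**
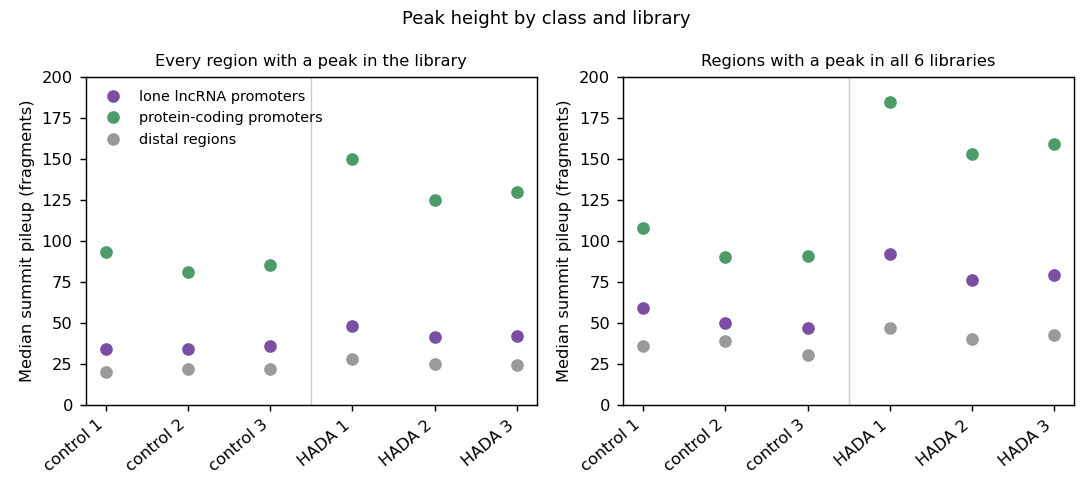
Median summit pileup (fragments, vertical axis) in each of the 6 libraries for the 3 classes, over every region with a peak in that library (left) and over regions with a peak in all 6 (right). In every library lone lncRNA promoters sit between protein-coding promoters and distal regions, at 34 to 48 fragments in the left panel.

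In base composition these promoters also lay between both classes. Their median GC content around the summit was 51.2%, against 64.5% at protein-coding promoters and 47.5% at distal regions. The observed to expected CpG ratio was 0.315, against 0.775 and 0.204. CpG-rich sequence (ratio over 0.6 and GC over 50%) was found at 466 lone lncRNA promoters (14.4%), compared with 69.2% and 3.29%. The CpG-rich promoters were the more constant ones: 67.2% of them had a peak in all libraries, against 40.8% of the CpG-poor ones. Among promoters found in a single library 5.0% were CpG-rich, and among those found in all 6 21.7%.

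Regions nearer to the annotated start were found in more libraries. With a summit within 200 bp of the lncRNA start, 50.2% of 1820 regions were found in all libraries, and their median scaled pileup was 0.506. Among members in the outermost 200 bp below the limit of 1 kb, 29.2% of 301 regions were found in all libraries with a median of 0.322. In the next 200 bp beyond it, the values were 29.4% of 303 regions and 0.301. The values on both sides of the limit were thus close to each other.

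For comparison between groups, each pileup was divided by the median pileup of the 23013 regions found in all 6 libraries (59, 55 and 50 fragments in the control and 94, 79 and 83 in the HADA libraries), which is called the scaled pileup. Differences are HADA minus control on the log2 scale, tested with limma over all 23013 regions with Benjamini-Hochberg adjustment at 0.05. Among the listed lncRNAs, the tallest lone promoters were those of Frmd8os and Malat1, and both were called lower in HADA, though not by every measure. With background scaling the differences were -0.37 and -0.26, and neither was called. By rank of the fold over local background they were 0.72 and -0.13 units of normal scores, again without a call. Frmd8os thus changed direction by fold rank, with a limma adjusted p of 0.05001, just above the threshold.

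Malat1 is processed at its end by cleavage rather than polyadenylation and stays in the nucleus. Its promoter (chr19:5852174-5853933, between protein-coding genes) had summit pileups of 482, 408 and 678 in the control and 646, 443 and 452 in the HADA libraries. Scaled to the library, this was 9.72 ± 3.35 against 5.98 ± 0.781 (SD, n = 3), a log2 difference of -0.66 ± 0.23 (SE, limma adjusted p = 0.0445). All HADA values lay below all control values, and control 3 was the highest library. Without control 3 the difference was -0.43, and the call was lost when control 1 or any of the HADA libraries was left out. The architectural RNA of paraspeckles, Neat1, has its 5′ end 1376 bp from the nearest summit and is no member. That summit belongs to the promoter region of Frmd8os, which lies inside Neat1 on the other strand (chr19:5894357-5897121). This region ends just before the 5′ end of Neat1 at position 5897132, so its openness cannot be assigned to Frmd8os alone. Its pileups were 662, 666 and 1066 against 946, 623 and 620, and the difference was -0.76 ± 0.25 (SE, limma adjusted p = 0.0362). Here too the groups were apart, and without control 3 the difference was -0.51; the call was lost without each HADA library. Neutrophil marker levels, like both promoters, were highest in control 3 and lower in every HADA library than in every control library, and their part in the result was not tested.

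Of the 16 lncRNAs studied in immune cells that are annotated on chromosomes 1 to 19, 8 had a lone promoter region, 5 were tested, 1 was called lower by limma and 0 higher, where 24.2% and 18.2% of all tested regions were called (at an unadjusted p under 0.05, 2 and 1, and by fold rank 0 either way). The clearest was Ptgs2os2, named for the gene of the prostaglandin-producing enzyme COX-2 beyond it. Its promoter (chr1:150040488-150041914) had pileups of 263, 285 and 502 in the control and 235, 98 and 96 in the HADA libraries. The scaled level was 6.56 ± 3.04 against 1.63 ± 0.753 (SD, n = 3). The log2 difference was -2.0 ± 0.36 (SE, limma adjusted p = 0.00665), which is 4.01-fold lower in HADA. Without control 3 it was -1.69, and the call held without each library in turn. The nearest protein-coding promoter, that of Ptgs2 65 kb away, was also called lower, by 1.85 on the log2 scale. By rank of the fold over local background, however, Ptgs2os2 differed by -0.12 units of normal scores and was not called.

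The other tested immune lncRNAs did not pass in the main comparison. Mirt1, described in inflamed and infarcted heart tissue, had pileups of 234, 233 and 430 against 364, 243 and 240 and a difference of -0.69 ± 0.28 (SE, limma adjusted p = 0.0726), with all HADA values below the control values after scaling. Without control 3 it was -0.37 and without control 1 -0.87, both called, as with quantile normalization (-0.52), and by fold rank it was 0.38. Mir155hg, the precursor of miR-155, which is induced in activated lymphocytes and macrophages, had a weak promoter. Its pileups were 33, 12 and 8 against 46, 56 and 52, and the difference was 1.16 ± 0.43 (SE, limma adjusted p = 0.0555). Control 1 overlapped the HADA values there; without it the difference was 1.70 and called, and without control 3 it was 0.74; it was also called with background scaling (1.55) and quantile normalization (1.52). Mir142hg, the precursor of a microRNA of all blood cells, and Lockd, transcribed just downstream of the cell cycle inhibitor gene Cdkn1b, stood at 5.42, 4.78 and 8.24 against 5.18, 4.51 and 5.11 and at 3.05, 2.82 and 4.28 against 3.77, 3.46 and 3.45 scaled units, without separation of the groups. Bach2os, inside the B cell factor gene Bach2, had a peak in the 3 HADA libraries alone, with pileups of 17, 15 and 17. A summit of its region lies 2419 bp from the start of a non-coding transcript of a protein-coding gene. AW112010, an interferon-inducible transcript of lymphoid and myeloid cells, had pileups of 19 and 16 in control 1 and 2, none in control 3, and 32, 18 and 30 in HADA. Trp53cor1, a p53 target known as lincRNA-p21, was found in control 1 and HADA 3 only.

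Imprinted lncRNAs are transcribed from one parental copy, and some of them, such as Kcnq1ot1 and Airn, keep neighbouring genes silent. Of 14 imprinted and developmental lncRNAs, 3 had a lone promoter region, in 4 regions. Kcnq1ot1, which starts inside Kcnq1 on the opposite strand (chr7:142849109-142850676), had pileups of 73, 54 and 41 in the control and 155, 136 and 129 in the HADA libraries. Scaled, this was 1.01 ± 0.210 against 1.64 ± 0.0839 (SD, n = 3), a log2 difference of 0.72 ± 0.19 (SE, limma adjusted p = 0.0167). The groups were apart, and the call was lost without HADA 1 or HADA 2 and by fold rank (0.13). Airn, which starts inside Igf2r, had a peak of 34, 35 and 35 fragments in the HADA libraries, 21 and 11 in control 1 and 3 and none in control 2, and a second region 1203 bp from its start was found in HADA only (18, 21 and 20). H19, the maternally expressed RNA beside Igf2, had 40, 38 and 36 fragments in HADA, 12 in control 1 and no peak in the other control libraries. These were weak peaks, and a library without a peak has no value, so no difference was tested.

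Hosts of small nucleolar RNAs (Snhg genes) carry in their introns the RNAs that guide modification of ribosomal RNA. All 8 lone promoter regions of the 18 such genes were found in every library. By limma 2 were called higher and 0 lower, a share near the 18.2% of all tested regions called higher, while 24.2% were lower (3 and 0 at an unadjusted p under 0.05, and 0 by fold rank). Snhg6 had pileups of 60, 49 and 29 against 135, 92 and 109 and a difference of 0.69 ± 0.23 (SE, limma adjusted p = 0.0408). Snhg17 had 69, 46 and 44 against 114, 125 and 137 and a difference of 0.63 ± 0.20 (SE, limma adjusted p = 0.0342). Both showed separate groups; the Snhg6 call was lost without control 3 (0.41) or any HADA library and the Snhg17 call without control 2, HADA 2 or HADA 3. The scaled levels of Snhg8 were 4.13 ± 0.406 against 4.0 ± 0.0678 (SD, n = 3), and those of the region shared by Snhg5 and Gm67903 were 4.05 ± 0.0575 against 3.79 ± 0.211; these differences of -0.04 ± 0.13 and -0.10 ± 0.12 (SE) did not pass.

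Of 17 microRNA host genes 8 had a lone promoter region, 5 were tested and 0 were called by limma, against 18.2% higher and 24.2% lower of all tested regions (2 higher and 0 lower at an unadjusted p under 0.05, and 0 called by fold rank). Mir22hg was the tallest of them, with pileups of 390, 387 and 488 against 662, 552 and 532 and a difference of -0.18 ± 0.17 (SE). A summit of its region lies 252 bp from the start of a non-coding transcript of a protein-coding gene. Mir17hg, the precursor of the miR-17 to miR-92 cluster that supports lymphocyte growth, had 62, 28 and 28 against 91, 84 and 78, and Mir181a-1hg, whose microRNA tunes antigen receptor signals, had 46, 32 and 26 against 71, 90 and 90. The differences were 0.56 ± 0.28 and 0.66 ± 0.24 (SE, limma adjusted p = 0.127 and 0.0528), and the control 1 level lay within the range of the HADA libraries in both cases. Without control 1 both were called (0.91 and 0.85), as with background scaling (0.96 and 1.06), and Mir181a-1hg also with quantile normalization (0.73) and without HADA 1 (0.86). The hosts of brain microRNAs were weak: Mir124a-1hg had a peak in HADA 3 only, and Mir9-2hg had 9 to 39 fragments in 5 libraries. Among widely expressed lncRNAs, Epb41l4aos was called higher (70, 55 and 31 against 135, 117 and 125 fragments, 0.71 ± 0.24 (SE), limma adjusted p = 0.0408), with a difference of 0.40 without control 3 and no call without each HADA library. The region shared by Norad, a sponge of Pumilio proteins, and 1700057D03Rik differed by 0.27 ± 0.16 (SE) and did not pass; its summit sequence occurs 3 times in the genome.

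Genes named for lying opposite a protein-coding gene, 307 in the annotation, gave 30 lone promoter regions, of which 13 were tested, 4 called higher and 3 lower, against 18.2% and 24.2% of all tested regions; by fold rank 1 was called. The higher ones were Epb41l4aos, Ctcflos, Lyrm7os and Slc36a3os. Ctcflos had 85, 59 and 69 fragments against 214, 198 and 170, a difference of 0.82 ± 0.17 (SE, limma adjusted p = 0.00852) that held without each library. Its tallest summit lies 1073 bp from the gene start, beyond the limit of 1 kb, which another summit of the region meets. Lyrm7os had 104, 77 and 80 against 222, 188 and 197, and its scaled level was 1.59 ± 0.182 against 2.37 ± 0.00916 (SD, n = 3); the call was lost without HADA 1 or HADA 2. Slc36a3os differed by 0.54, and its call was lost without control 2 or any HADA library and by fold rank. The lower ones were Ptgs2os2, Frmd8os and Rab10os, the last with 329, 288 and 454 against 352, 330 and 360 fragments and a difference of -0.66 ± 0.21 (SE, limma adjusted p = 0.0333), or -0.45 without control 3, and no call without each HADA library, with background scaling (-0.26) or by fold rank (-0.37). Il1bos, beside the cytokine gene Il1b, had 67, 55 and 130 fragments in the control, 42 and 28 in HADA 1 and 3 and no peak in HADA 2, so it was not tested.

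**Figure D3:**
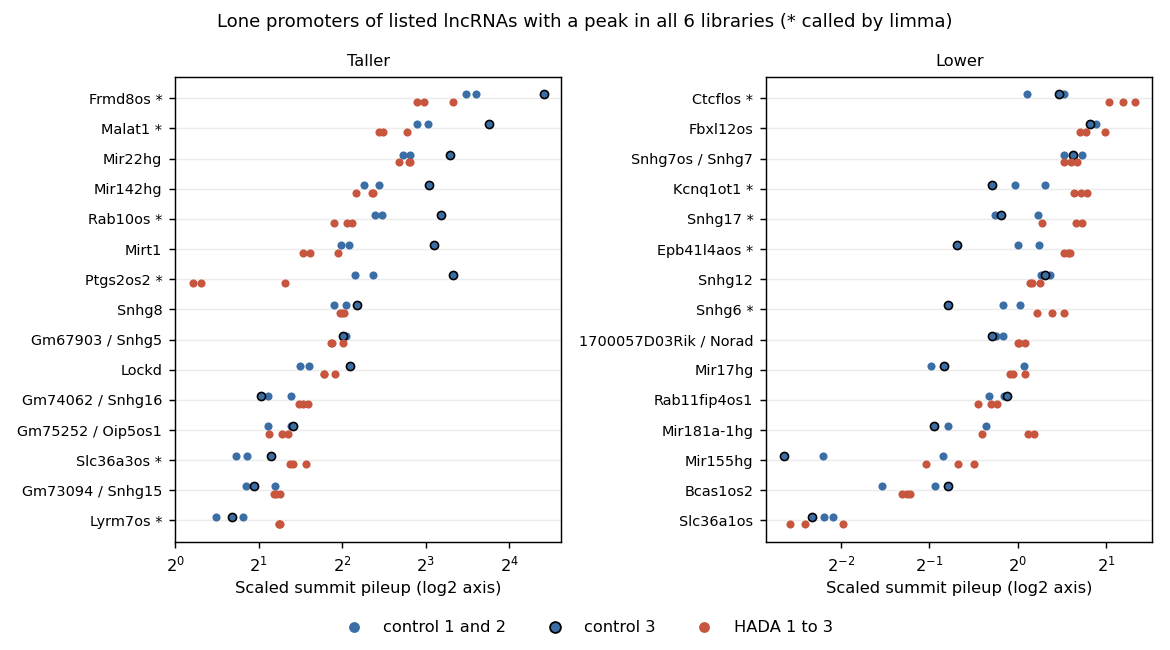
Scaled summit pileup (horizontal axis, log2 scale; 1 is the median region found in all 6 libraries) of listed lncRNAs with a lone promoter found in all libraries, in order of their mean, with a point per library. Asterisks mark calls by limma; control 3 (outlined) is the highest library at Frmd8os, Malat1 and Ptgs2os2 and the lowest at Kcnq1ot1, Epb41l4aos and Snhg6.

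Across all lone lncRNA promoters, changes went in both directions. Of the 1443 tested, 349 were called higher in HADA (24.2%, against 18.2% of all 23013 regions) and 318 lower (22%, against 24.2%), so 46.2% were called in all, against a background of 42.4%. The groups did not overlap at 905 of them (62.7%, against 60.8% of all regions). The median difference was 0.06, compared with 0.11 at protein-coding promoters, -0.47 at distal regions and -0.04 over all regions. Protein-coding promoters had 2107 higher and 884 lower calls among 10109, and distal regions 1589 and 4169 among 10632. The balance of directions at lone lncRNA promoters thus lay between the other classes. It depended on the scaling: with pileups divided by the background of the library, which moved the median of all regions by 0.40, 570 were higher and 209 lower (against 33.1% and 16.8% of all regions), with quantile normalization, which moved it by 0.14, 452 and 302 (25.1% and 19.7%), and with the rank of the fold 136 and 72 (7.73% and 6.09%). With only summit sequences found once in the genome, and centring and fit repeated on those regions, 283 were higher and 347 lower of 1362 (16.5% and 23.7%); the 81 tested promoters set aside had 15 higher and 19 lower calls in the main comparison, so most of the change lies in the calls of promoters that stayed. The share of higher calls was 52.3% in the main comparison, 73.2% with the background scaling and 65.4% with the fold rank. It was 59.9% with quantile normalization and 44.9% with summit sequences found once. When a library was left out it ran from 40.1% (without HADA 2) to 55.8% (without control 1).

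**Figure D4:**
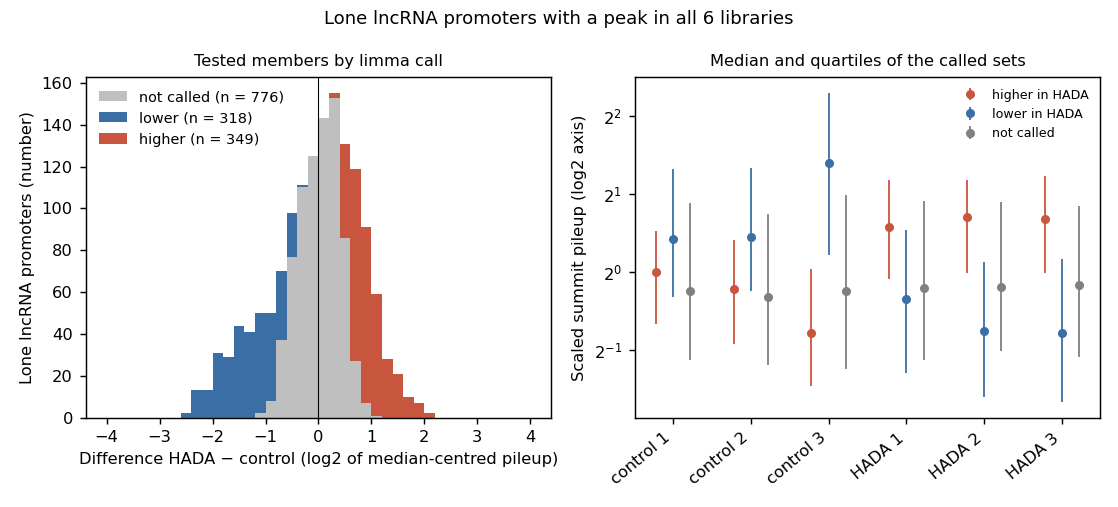
Left, number of lone lncRNA promoters (vertical axis) by log2 difference HADA minus control (horizontal axis) with the limma call in colour. Right, median and quartiles of the scaled pileup (log2 axis) of the 349 higher, 318 lower and 776 uncalled promoters in each library; control 3 has the lowest median of the higher set (0.580) and the highest of the lower set (2.62).

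Within the groups the libraries were not equal. At the promoters called higher, the median scaled pileup was 1.00, 0.855 and 0.580 in the control and 1.49, 1.62 and 1.60 in the HADA libraries. At those called lower it was 1.34, 1.36 and 2.62 against 0.782, 0.589 and 0.578. Control 3 was thus the most extreme control library in both sets, and HADA 1 lay nearest to the control libraries. The order of the control libraries was that of the B cell marker levels in the first set and, for control 3, that of the neutrophil marker levels in the second; their part in the result was not tested. Leaving out a library also changes which regions have a peak in all that remain. Without control 3, 431 of 1684 were called higher and 343 lower (20.6% and 23.4% of all regions). Without HADA 1 205 of 1459 were higher and 239 lower (9.46% and 16.2% of all regions), without HADA 2 125 of 1465 and 187 (5.61% and 12.6%), and without HADA 3 168 of 1471 and 205 (7.74% and 15.9%).

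CpG-rich and CpG-poor promoters differed in their counts. Of 313 tested CpG-rich lone lncRNA promoters 86 were higher and 29 lower, with a median difference of 0.20 (18.2% and 24.2% of all tested regions were higher and lower), and of 1130 CpG-poor ones 263 were higher and 289 lower, with a median of 0.02. At protein-coding promoters 1597 of 7894 CpG-rich ones were higher and 467 lower, and 510 of 2215 CpG-poor ones were higher and 417 lower. In both classes a smaller share of CpG-rich promoters was lower. The share of higher calls was larger at CpG-rich than at CpG-poor lone lncRNA promoters (27.5% and 23.3%), whereas at protein-coding promoters it was smaller (20.2% and 23.0%). By position, 257 of 1130 promoters between protein-coding genes were higher (22.7%, against 18.2% of all tested regions) and 245 lower (21.7%, against 24.2%). Inside a gene on its opposite strand 74 of 251 were higher (29.5%) and 58 lower (23.1%), and on its same strand 17 of 56 were higher (30.4%) and 15 lower (26.8%). These shares were not tested against each other.

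The nearest protein-coding promoter was found in all libraries and could be compared for 1056 of the tested promoters. Beside 260 lncRNA promoters called higher, 91 of the nearest protein-coding promoters were also higher (35.0%) and 9 lower. Beside 243 called lower, 19 were higher and 50 lower (20.6%). Beside 553 that were not called, 88 were higher (15.9%) and 58 lower (10.5%). Over all 1056 pairs, 18.8% of the nearest protein-coding promoters were higher and 11.1% lower. Across these pairs of regions the Spearman correlation of the differences was 0.33 (n = 1056 pairs measured in the same 6 libraries), which is a description, since regions are not independent replicates.

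The 8 promoters with the largest rise among those with separate groups and a summit sequence found once were those of Gm62735, Gm75723, Gm63710, Gm67162, Gm68146, 2210022D18Rik, Gm70254 and Gm60816, with log2 differences of 1.84 to 2.08. Of these 8, 4 lie inside a protein-coding gene. Gm62735 starts inside Mtss1, a membrane-bending regulator of actin (chr15:58930873-58932023), and had 55, 53 and 13 fragments in the control and 274, 202 and 196 in the HADA libraries. This was 0.719 ± 0.397 against 2.61 ± 0.281 scaled units (SD, n = 3). The log2 difference, taken from means of log2 values, was 2.08 ± 0.44 (SE, limma adjusted p = 0.00938), which is a 4.22-fold rise. The promoter of Mtss1 itself was higher by 1.44. The gene 2210022D18Rik (chr13:37635469-37637622), whose nearest coding promoter is that of Ly86, the partner of the Toll-like receptor homologue RP105 of B cells, had 36, 29 and 11 against 136, 133 and 123; Ly86 was higher by 1.12. Gm63710 inside Plekha2 had 43, 38 and 9 against 162, 129 and 166, and Plekha2 was higher by 0.95. Gm75723 lies in Vav2 (51, 27 and 11 against 177, 147 and 147), a signalling protein downstream of antigen receptors, and Gm68146 in Hivep3 (48, 44 and 12 against 202, 171 and 163), a zinc finger factor. Gm60816 (48, 43 and 18 against 213, 167 and 182), Gm67162 (43, 32 and 11 against 170, 132 and 154) and Gm70254 (50, 40 and 12 against 180, 157 and 152) lie between protein-coding genes. Atp23, nearest to Gm67162, was higher by 1.09, and Cyria, nearest to Gm60816, was not called (-0.18).

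In all 8 the HADA libraries were close together, at 1.45 to 2.91 scaled units. Control 1 and 2 lay at 0.491 to 0.964 and control 3 at 0.180 to 0.360. Control 3 was the lowest library at each. Without it, the differences were 1.24 to 1.46, and all 8 were still called. The same library had the lowest B cell marker level. By fold rank the 8 differences were 0.59 to 1.04 units of normal scores with limma adjusted p of 0.0690 to 0.258, so 0 were called, while 7 of the 8 had an unadjusted p under 0.05.

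The 8 promoters with the largest fall were those of Gm56957, Gm74899, Gm65299, Gm59229, Gm59704, Gm67357, Gm60960 and Gm67777, with log2 differences of -2.52 to -2.28. Gm56957 (chr10:99302658-99304064), whose nearest coding gene is the MAP kinase phosphatase gene Dusp6, had 80, 72 and 206 fragments in the control and 40, 25 and 24 in the HADA libraries. Its scaled level was 2.26 ± 1.61 against 0.344 ± 0.0722 (SD, n = 3). The log2 difference, taken from means of log2 values, was -2.52 ± 0.42 (SE, limma adjusted p = 0.00623), which is 5.73-fold lower. Gm67357 (chr10:51406756-51407669) lies 40 kb from the promoter of Lilrb4a, an inhibitory receptor of myeloid cells, and had 98, 106 and 222 against 77, 32 and 30; Lilrb4a was lower by 1.95. Gm74899 lies 61 kb from Smox, the spermine oxidase gene, and had 55, 65 and 116 against 25, 18 and 19. Smox was lower by 1.15. The nearest coding promoters of 4 others were not called: the difference was 0.06 at Dusp6, 0.05 at Zfp36l2 (nearest to Gm65299), 0.01 at Sc5d (nearest to Gm67777) and -0.09 at Cdc42ep2 (nearest to Gm59229). The tallest of the 8, Gm60960 (chr16:93710538-93711590), had 235, 253 and 505 against 168, 77 and 75. Gm59704 (142, 161 and 401 against 103, 46 and 61), Gm65299 (127, 113 and 334 against 83, 40 and 38) and Gm67777 (114, 90 and 288 against 90, 34 and 32) also had their highest scaled level in control 3 and, among the HADA libraries, in HADA 1. The tallest summit of Gm65299 lies at -1381 bp relative to its gene start, beyond the limit of 1 kb. Gm59229 (54, 49 and 60 against 21, 18 and 12) was the most even of the 8 within the control group.

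Control 3 was again the extreme library at these promoters, at 1.20 to 10.1 scaled units against 0.891 to 4.60 in control 1 and 2. HADA 1 lay at 0.223 to 1.79 and HADA 2 and 3 at 0.145 to 0.975. Without control 3 the differences were -2.26 to -1.76, and all 8 were still called. By fold rank 4 of the 8 passed, those of Gm59229, Gm60960, Gm65299 and Gm67777. Not called were Gm56957 (-0.56 units of normal scores), Gm67357 (-0.57), Gm74899 (-0.12) and Gm59704 (-0.05), with limma adjusted p of 0.0885 to 0.861. The neutrophil marker level was also highest in control 3 and, among the HADA libraries, in HADA 1, which was the highest HADA library at 7 of the 8 promoters (not at Gm59229), with 12.9 in control 3 and 2.24 in HADA 1 against 1.76 and 1.30, and its part in the result was not tested.

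**Figure D5:**
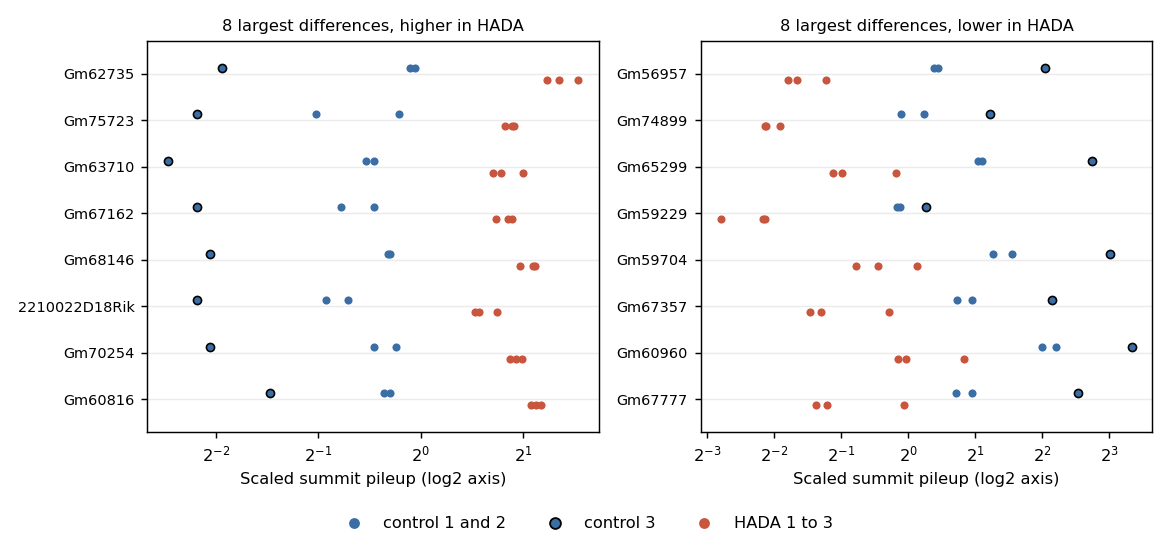
Scaled summit pileup (horizontal axis, log2 scale) in each library of the 8 lone lncRNA promoters with the largest rise (left) and the largest fall (right). Control 3 (outlined) is the lowest library in all 8 on the left, at 0.180 to 0.360, and the highest control library in all 8 on the right.

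Some promoters had a peak in every library of a group and in none of the other. In HADA only, 239 lone lncRNA promoters were found (7.39%, against 7.15% of all 60298 regions), and in control only 50 (1.55%, against 1.86%), so both shares were near those of all regions. Most were weak: the median of their mean pileup was 21.3 fragments for HADA-only and 17.8 for control-only promoters. Of the 466 CpG-rich promoters 23 were HADA-only and 0 control-only. With the same number of strongest peaks taken from each library the counts were 176 (6.47%, against 5.82% of all regions) and 78 (2.87%, against 4.64%), so the control-only share was then below that of all regions. Without control 1, 440 were HADA-only (13.8%, against 11.8%), and without HADA 1, 80 were control-only (2.52%, against 2.98%).

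The tallest HADA-only promoters were those of Gm30990 (130, 116 and 137 fragments), which starts inside Pdcd4 on the opposite strand, Gm66289 (129, 111 and 119), Gm46842 (119, 93 and 96), Gm12867 (117, 94 and 92), inside the glucose transporter gene Slc2a1, and Gm2109 (88, 92 and 81). For scale, the median region found in all 6 libraries had 50 to 59 fragments in the control and 79 to 94 in the HADA libraries. Neither Pdcd4 (-0.29) nor Slc2a1 (0.06) was called at its own promoter, while Chd7, the coding gene nearest to Gm46842 at 60 kb, was higher by 1.62. The tallest control-only promoters were those of Gm59848 (87, 81 and 151 fragments), Gm70428 (49, 45 and 84), Gm59348 (60, 57 and 81), Gm57025 (31, 35 and 68) and Gm64649 (38, 43 and 46). Gm59848 lies 126 kb from Ets2, an ETS family transcription factor gene whose promoter was lower by 0.76. Gm57025 lies inside Cxcr5, the receptor that leads B cells into follicles, and the promoter of Cxcr5 was higher in HADA by 1.46, the opposite direction.

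Among the 8 tallest lone lncRNA promoters found in all libraries, 2 stood far above the rest. Gm75300 on chromosome 2 (chr2:98496614-98497665), 1.2 Mb from the nearest protein-coding start, had 14841, 20327 and 17320 fragments in the control and 15297, 13473 and 15716 in the HADA libraries. Gm71269 on chromosome 1 (chr1:24650729-24655179) had 1716, 1791 and 2990 against 1987, 1568 and 2515, and 100% of the 30-base words around its summit also occur in the mitochondrial genome, which the count of copies left out, so its reads cannot be told apart from mitochondrial ones. Its tallest summit lies at -1462 bp relative to the gene start, beyond the limit of 1 kb. Gm75300 thus stood at 323 ± 62.5 against 174 ± 13.7 scaled units (SD, n = 3); its summit sequence occurs once on the assembled nuclear chromosomes, and whether misplaced reads add to its height was not tested. Neither promoter passed the test with all libraries, but without control 3 both were called lower (-0.85 and -0.44), and Gm75300 also with background scaling (-0.48) and without the mean-variance trend. By fold rank neither was called, at -0.012 units of normal scores for Gm75300 and 0.28 for Gm71269, the latter in the opposite direction. The others were Frmd8os, described above, Gm5112 (646, 567 and 808 against 944, 718 and 712), Gm57381 (602, 451 and 753 against 785, 585 and 608), Gm68888 (538, 543 and 909 against 690, 506 and 425), 1700113A16Rik (592, 515 and 592 against 920, 677 and 658) and Gm60630 (463, 439 and 673 against 780, 567 and 578). Gm60630 lies 18 kb from Fos, a subunit of AP-1 whose promoter was lower by 0.75, and Gm57381 lies upstream of Mir142hg on the other strand. Of these 5, Gm68888 was called, with a difference of -0.92 ± 0.26 (SE, limma adjusted p = 0.0229), or -0.65 without control 3 and no call without HADA 2 or HADA 3; by fold rank it was 0.045 units of normal scores and not called. It starts inside Tnfrsf1b, a receptor gene for tumour necrosis factor, on the same strand.

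The shares of promoters with short motifs near the summit are given as a description, without a test. The motifs searched on both strands within 100 bp of the tallest summit were those of ETS (CCGGAAGT), PU.1 (GAGGAAGT), RUNX (TGTGGTT), C/EBP (TTGCNNAA), AP-1 (TGANTCA), OCT (ATGCAAAT) and SP or KLF factors (GGGCGGG), and longer ones of CTCF, EBF, IRF, NRF1 and NRF2, of which examples of IRF and NRF2 stand in capitals above. The C/EBP motif, bound by factors of granulocytes and monocytes, was present at 52 of 318 lower (16.4%) and 15 of 349 higher promoters (4.30%), against 8.68% of all 60298 regions and 6.70% of the 776 uncalled promoters. AP-1, the dimer of JUN and FOS proteins, had a match at 12.9% of lower and 5.44% of higher promoters, against 5.58% of all regions and 5.41% of uncalled lone lncRNA promoters, and at 8 of 50 control-only promoters (16.0%). The CTCF motif was present at 2.52% of lower, 7.16% of higher and 6.70% of uncalled promoters, against 6.04% of all regions. The GC box of SP and KLF factors was likewise at 4.72% of lower, 12.6% of higher and 12.2% of uncalled promoters, against 8.79% of all regions, so higher and uncalled promoters were close to each other for both motifs. The NRF2 motif was present at 2.83% of lower and 2.87% of higher promoters, against 1.68% of uncalled ones and 2.27% of all regions. For the other motifs, the shares at lower and higher promoters were 6.60% and 6.88% for RUNX, 6.29% and 5.16% for PU.1, 4.40% and 3.72% for IRF, 1.57% and 0.573% for EBF, 1.26% and 2.58% for OCT, 1.26% and 2.01% for ETS and 0.629% and 0.573% for NRF1. These last 4 rest on 2 to 9 promoters each. A match gives letters in a window and not a bound site.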

How the data were processed

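Peak lists of 6 ATAC-seq libraries (3 control, 3 HADA; groups and replicate numbers per the labels), were used. For these the authors used Trimmomatic for trimming, Bowtie2 for alignment to the reference genome, Picard for duplicates and MACS2 for peaks. The study names GRCm39 where it describes the RNA-seq alignment. Each deposited list names peaks of 1 library. Options and versions are not given in the sources used here. The deposited lists give for each peak a score, a fold enrichment (a ratio of summit to local background), a −log10 p-value and a −log10 q-value. From the authors' fold and p-value the whole-number summit pileup was solved, for 100% of peaks. Total read counts were not analysed here, and the background pileup stands for depth.

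Genes came from the GENCODE annotation of GRCm39; 9.68% of summits were no more than 100 bp from a gene 5′ end, and 0.848% were so once shifted by 100 kb. The 5′ end used for a gene is that of its gene record. Starts of non-coding transcripts of protein-coding genes were not considered, and 158 members lie within 3 kb of one. Log2 pileups were centred on the median of the 23013 regions with a peak in all 6 libraries and compared with limma 3.58.1 (R 4.3.3) with a mean-variance trend, two-sided, with Benjamini-Hochberg adjustment over all 23013 at 0.05. The fit was tested on simulated data first. The scripts used Python 3.11.15. Nothing in the sources used here says whether the 3 libraries of a group came from separate mice, so p-values measure only the spread between libraries, which may be technical. Copies of the 50 bases at a summit were counted on chromosomes 1 to 19, X and Y, so copies in the mitochondrial genome were not seen. Genes without a peak in a library have no value there and none was imputed.

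The 9 promoters shown by sequence are 3 listed genes picked after their values were seen, the 2 largest differences each way, and the tallest HADA-only and control-only member. Named are members at listed lncRNAs, the 8 largest differences each way among members with separate groups and a unique summit, the 5 tallest HADA-only and control-only members with a unique summit, and the 8 tallest members. The members, lists and tests were chosen with earlier results of these data known. Alternatives tried were other scalings and filters, other distance limits, a replicate block, and leaving out each library. Added after seeing the data was the exclusion of every transcript start of a protein-coding gene.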

Additional observations from a re-analysis of the deposited data

How the results depend on the processing

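The counts of lone lncRNA promoters called higher and lower (349 and 318) stayed within 1.5 times under quantile normalization, without the trend, with unique summits only, with a −log10 q of at least 5, with 150 bp summit windows and with the other distance limits. They were 136 and 72 with the fold rank and 570 and 209 with the background scaling; by the construction of that scaling, the shift of the median region is then counted as change. Leaving out a library gave 125 to 431 higher and 187 to 349 lower, the lowest without HADA 2. Same-numbered libraries of both groups deviated from their group means with correlations of -0.10, 0.09 and -0.38, so the numbers were not taken as pairs; with a replicate block 279 were higher and 290 lower (13.5% and 23.2% of all regions), and 24 of 28 named promoters with a call kept it, while Malat1 (limma adjusted p = 0.0550), Frmd8os (0.0529), Snhg6 (0.0502) and Snhg17 (0.0680) did not.

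With the limit of 300 bp to the lncRNA start there were 2116 regions in place of 3234, and 138 of them were HADA-only. HADA-only counts without a library ranged from 255 to 440. Control-only counts were 78 with an equal number of strongest peaks per library and 60 to 80 without a library. The mean ratio of lone lncRNA to protein-coding height of 0.363 became 0.518 over regions found in all libraries and 0.666 with the authors' fold. When every transcript start of a protein-coding gene was kept 3 kb away, 3076 regions remained, with 326 higher and 306 lower. Of the 28 named promoters with a call, 28 kept it under quantile normalization, 25 under background scaling, 24 without the trend (not Malat1, Frmd8os, Rab10os and Epb41l4aos) and 5 with the fold rank, where Frmd8os turned to 0.72 and Gm68888 to 0.045 in units of normal scores; the cause was not tested. Shallower peaks limit what can be read: a promoter without a peak may still be open.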

Other observations

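Among lone lncRNA promoters, those of genes with a single exon stood out in height and constancy. Of 432 such promoters 61.1% had a peak in all 6 libraries, with a median scaled pileup of 1.68 over those, against 42.1% of 2802 promoters of genes with 2 or more exons and a median of 0.922. Of the single-exon promoters tested, 68 were higher and 73 lower of 264 (25.8% and 27.7%, against 18.2% and 24.2% of all tested regions), with a median difference of -0.13. Of the others 281 were higher and 245 lower of 1179 (23.8% and 20.8%), with a median of 0.08. Single-exon genes named above with a call are Gm59229, Gm60960, Gm65299, Gm68888 and Gm74899, lower in HADA, and Gm60816, higher in HADA.

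The summit lay within 100 bp of the annotated 5′ end at 22.8% of the promoters, more than 100 bp downstream of it at 43.7% and upstream at 33.5%. The part found in all libraries was 49.8%, 45.0% and 40.6% in this order. With the nearest protein-coding start under 10 kb away 46.0% were found in all libraries, at 10 to 50 kb 47.0% and beyond 50 kb 39.8%. More than 1 lncRNA start fell within reach of the same region at 348 promoters, so that the named gene is the nearest of several there. Genes on the plus and minus strands were about equal, with 1606 on the minus strand. Chromosome 4 had the highest share of promoters found in all libraries (56.1% of 171) and chromosome 14 the lowest (36.7% of 109).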
